A study of Homo sapiens with 6 samples.

Results

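The DNA replication machinery is followed here as 45 genes, chosen by symbol from 23228 genes in the count files, and all 45 were read well enough to be tested. They were grouped by role: 9 for licensing of origins, 12 for the replicative helicase, 10 for polymerases and primase, 6 for the sliding clamp and its loader, 5 for Okazaki fragment maturation and single-strand binding, and 3 for nucleotide supply. The cells are MDA-MB-231, an established human triple-negative breast cancer line. They were grown in DMEM with serum, infected with lentivirus carrying a scrambled short hairpin RNA (shRNA, 3 libraries called scramble) or an shRNA to SCUBE3 (3 libraries labelled shSCUBE3), and selected with puromycin in both groups; the labels say that SCUBE3 was looked at by western blot. SCUBE3 encodes a secreted protein that the series' title connects with oncogenic signalling. The labels do not give the number of shRNA sequences used, whether the cells were pools or clones, or whether the replicates were separate cultures, so the p-values reflect the scatter among 3 libraries a group and that scatter may be technical.

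Replication starts when the origin recognition complex (ORC) marks origins and, with CDC6 and CDT1, loads the ring of MCM2 to MCM7, a step called licensing that geminin (GMNN) blocks by binding CDT1. CDC45 and the GINS complex then turn the ring into a moving helicase, polymerase alpha with primase lays down primers, and polymerases epsilon and delta extend them on the PCNA clamp, which replication factor C loads. Many of these genes are transcribed before and during S phase under E2F factors, and tumour lines that divide fast usually express them well.

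Polyadenylated RNA gave 21348509 to 25520901 reads in genes per library. Reads of SCUBE3 itself numbered 96, 91 and 80 in scramble and 99, 107 and 101 in the libraries labelled shSCUBE3 (log2 fold change 0.03, 95% interval -0.26 to 0.31). SCUBE3 RNA was thus not measurably lower under its shRNA label, and every direction below is that of the labels. The features of MDA-MB-231 were mostly present: VIM, CD44, EGFR, AXL, KRT8 and KRT18 were read in all libraries, ESR1 was at a mean of 0.118 CPM or less, MTAP, which is deleted in this line, had 0 reads in the 6 libraries, and CDKN2A, deleted as well, had 1 read in all. PGR, which a triple-negative line should lack, had 25, 18 and 23 reads in scramble and 0 in each library labelled shSCUBE3. ERBB2 and GATA3, listed as low in this line, had 53.5 and 5.91 CPM in scramble and 92.2 and 15.5 CPM in the libraries labelled shSCUBE3. Markers of other cell types were low but not even between the groups. The 6 fibroblast markers summed to 5.05 to 6.25 CPM (reads relative to the scaled library total) in scramble and 26.2 to 29.5 CPM in the libraries labelled shSCUBE3, with 4 of 6 higher and DCN at 0 reads. The 6 leukocyte markers summed to 0.36 to 0.716 and 6.87 to 7.61 CPM, with 2 of 6 higher and TYROBP at 0 reads, and the 4 endothelial markers to 4.68 to 6.61 and 9.99 to 11.9 CPM, with 2 of 4 higher. Their part in the results below was not tested.

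Promoter sequences were matched for 39 of the 45 genes, from RefSeq on GRCh38.p14, each from 250 bases before to 50 bases after the start site. Members were searched for the E2F motif, since E2F factors are the known regulators of this gene group. The letters searched were TTTCCCGC, TTTGGCGC, TTTCGCGC and TTTGCCGC, on both strands, where a TTTCGCGC match can overlap a match on the other strand. At least 1 match was found in 18 of 39 member promoters (46.2%), against 3.33% of 27305 promoters of this length and 5.29% of those of tested genes. The CCAAT box (CCAAT, both strands) was in 56.4% of the member promoters and 35.7% of all. The CHR element of cell cycle genes (TTTGAA or TTCGAA, both strands) was in 2 of 39 (5.1%), against 16.6% of all promoters and 11% of those of tested genes. The E2F match was in 12 of 25 members that were lower in the libraries labelled shSCUBE3, 3 of 8 that were higher and 3 of 6 that did not pass the test. Members without a matched promoter were MCM4, MCM5, POLD3 and the members with the largest rises, RPA3, RPA2 and GINS4. A match is a description and not a binding site. Whether a match goes with the direction of change was not tested. MCM6 and MCM7 have further matches outside the stretch shown. The sequences below, 5′ to 3′ on the gene's strand, have the first E2F match in capitals, with any match that overlaps it. They come from 5 members that were lower, POLA1 (chrX:24693755-24693814, plus strand), RFC3 (chr13:33818068-33818127, plus), PCNA (chr20:5126648-5126707, minus), GINS2 (chr16:85688955-85689011, minus) and CDT1 (chr16:88803728-88803787, plus), 2 that were higher, POLA2 (chr11:65261883-65261942, plus) and MCM7 (chr7:100101551-100101610, minus), and MCM6 (chr2:135876562-135876621, minus), which did not pass.
POLA1: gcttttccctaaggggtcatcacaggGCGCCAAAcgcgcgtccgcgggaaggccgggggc
RFC3: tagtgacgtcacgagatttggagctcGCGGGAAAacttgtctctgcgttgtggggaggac
PCNA: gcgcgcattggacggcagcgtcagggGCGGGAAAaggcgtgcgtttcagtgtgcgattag
GINS2: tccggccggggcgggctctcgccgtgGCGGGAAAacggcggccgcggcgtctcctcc
CDT1: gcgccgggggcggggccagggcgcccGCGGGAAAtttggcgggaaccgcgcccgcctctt
POLA2: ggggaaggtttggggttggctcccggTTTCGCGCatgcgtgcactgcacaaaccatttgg
MCM7: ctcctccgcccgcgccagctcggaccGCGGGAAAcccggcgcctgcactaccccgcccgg
MCM6: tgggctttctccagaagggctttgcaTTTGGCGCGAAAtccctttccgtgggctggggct

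Across the 45 genes, 27 were lower and 11 higher in the libraries labelled shSCUBE3, and 7 did not pass (quasi-likelihood test of edgeR, p adjusted by Benjamini-Hochberg over all 13606 genes tested, threshold 0.05). That is 60% lower and 24.4% higher, where 42.5% of all genes tested were lower and 43.4% higher, and 85.9% were called in either direction. The groups did not overlap in 28 members on the lower and 9 on the higher side, where 85.8% of all genes were separate in either direction (42.5% lower, 43.3% higher). A call is therefore no distinction in this series, and the sizes matter more. The median log2 fold change of the members was -0.23, against 0.01 over all genes. Their changes were small for this comparison: the median absolute log2 fold change was 0.37 against 0.64 over all genes, and 31.1% of members against 59% of all genes reached 0.5 in size. All genes tested include genes with few reads, and no comparison at matched levels was made. In the lists of other replication and cell cycle genes below, that median ran from 0.35 (translesion polymerases) and 0.36 (mitosis) to 0.70 (origin firing). Small size is thus not particular to the members. Of the called members, 12 fell and 2 rose by at least 0.5, and 4 fell and 1 rose by at least 1 on the log2 scale. A size of at least 1 in either direction was thus reached by 11.1% of members, against 31.2% of all genes. Summed over the members, CPM were 6816, 6829 and 6821 in scramble and 5629, 5669 and 5560.1 in the other group, a change of -17.6%. In RNA from whole cultures, fewer cells in S phase and less RNA per cell cannot be told apart.

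**Figure D1:**
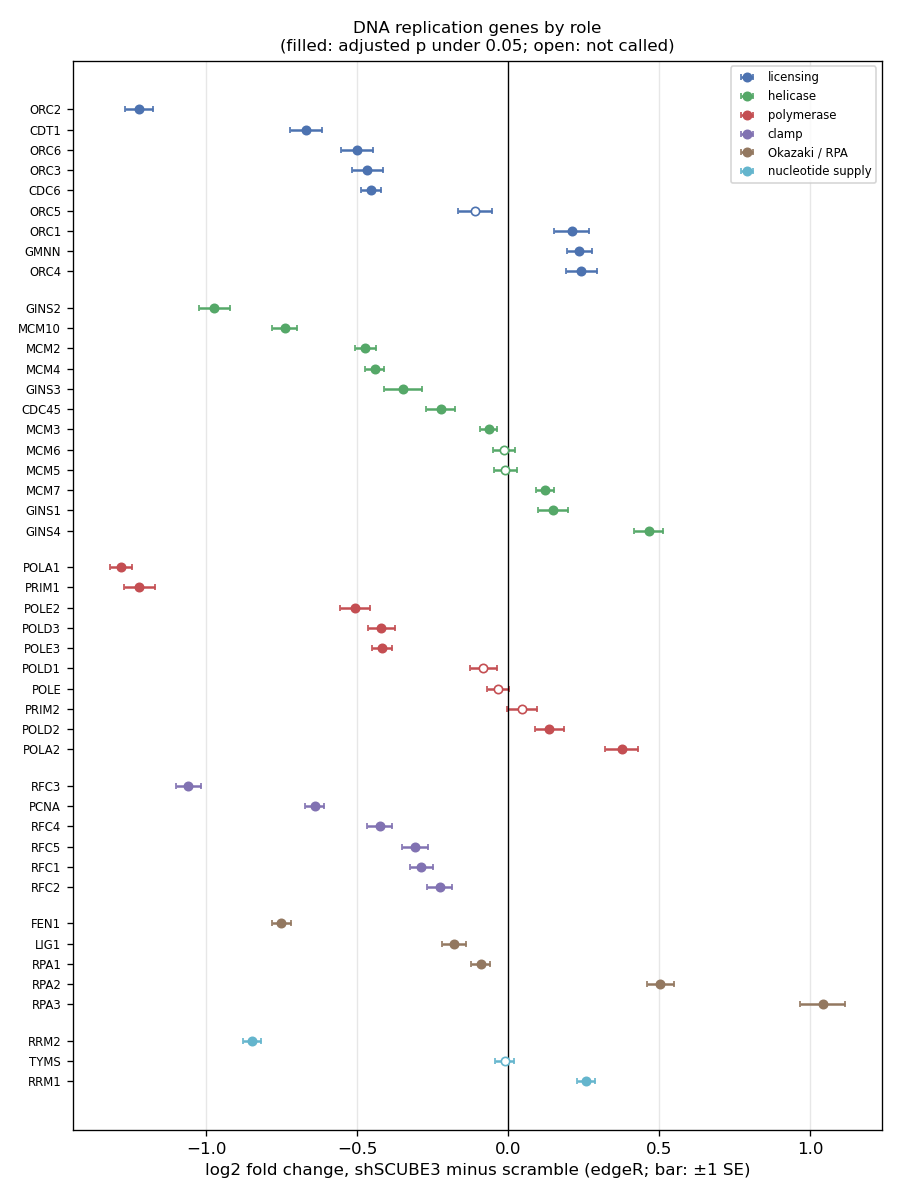
Log2 fold changes (labelled shSCUBE3 minus scramble, horizontal axis) of the 45 replication genes, grouped by role and ordered within it; points are edgeR estimates and bars ±1 SE, filled where the adjusted p was under 0.05. The 6 clamp genes all lie below 0, while every other role has members on both sides, from POLA1 at -1.28 to RPA3 at 1.04.

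Licensing genes split. ORC2, ORC3, ORC6, CDC6 and CDT1 fell, ORC1, ORC4 and GMNN rose, and ORC5 did not pass. Over the 9 genes the median log2 fold change was -0.45. ORC2, a core subunit of the origin recognition complex, had 87.9, 83.9 and 89.1 CPM in scramble and 37.0, 37.8 and 37.0 CPM in the libraries labelled shSCUBE3. Those groups lie far apart, and the log2 fold change of -1.22 ± 0.05 (SE; adjusted p = 1.27e-24) is the largest among the licensing genes. CDT1, the factor that brings MCM rings to origins, had 66.3, 76.5 and 69.4 CPM against 42.4, 46.5 and 44.3 CPM, again without overlap (log2 fold change -0.67 ± 0.05, adjusted p = 8.26e-15). ORC6, the smallest ORC subunit, had 50.7, 49.1 and 49.9 CPM against 33.3, 36.7 and 35.6 CPM (-0.50 ± 0.05, adjusted p = 3.53e-11). The ATPase gene CDC6, which completes the loading platform, fell by a similar amount (-0.45 ± 0.03), as did ORC3 (-0.47 ± 0.05).

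The members of the licensing group that rose did so by less. ORC1, the ATPase subunit of ORC, had a log2 fold change of 0.21 ± 0.06 (SE), ORC4 of 0.24 ± 0.05 and GMNN, the inhibitor of CDT1, of 0.23 ± 0.04, each without overlap between the groups. ORC5 had 32.7, 34.0 and 33.6 CPM in scramble and 29.4, 31.6 and 31.8 CPM in the libraries labelled shSCUBE3. Its libraries did not overlap either, but the test did not pass (adjusted p = 0.0724, 95% interval of the log2 fold change -0.23 to 0.01). The inhibitor and its target therefore moved in opposite directions: reads of GMNN per read of CDT1 were 1.43, 1.24 and 1.29 in scramble and 2.59, 2.49 and 2.33 in the other group.

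Among the helicase genes, 7 of 12 fell (58.3%) and 3 rose (25%), where 42.5% of all genes tested were lower and 43.4% higher. The median log2 fold change was -0.15. GINS2, a subunit of the 4-member GINS complex, had 67.4, 71.6 and 65.4 CPM in scramble and 35.1, 34.7 and 34.2 CPM in the libraries labelled shSCUBE3 (log2 fold change -0.97 ± 0.05 SE, adjusted p = 2.74e-20). MCM10, which helps to activate the loaded helicase, had 131, 142 and 145 CPM against 82.4, 83.0 and 84.6 CPM (-0.74 ± 0.04, adjusted p = 9.81e-20). MCM2, a subunit of the ring, had 207, 213 and 216 CPM against 146, 157 and 155 CPM (-0.47 ± 0.04, adjusted p = 1.58e-15). In all of these genes, each library of 1 group stood apart from each of the other.

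The MCM ring did not move as a unit. MCM4 fell (-0.44 ± 0.03) about as much as MCM2, MCM3 fell slightly (-0.07 ± 0.03, adjusted p = 0.0302) and MCM7 rose (0.12 ± 0.03). MCM5 had 120.4, 131 and 127 CPM in scramble and 123, 127 and 125 CPM in the libraries labelled shSCUBE3, and MCM6 157, 147 and 147 CPM against 152, 149 and 147 CPM. Both overlapped between the groups, with 95% intervals of the log2 fold change from -0.09 to 0.07 for MCM5 and -0.09 to 0.06 for MCM6. The small drop of MCM3 did not pass when libraries were scaled by their totals (adjusted p = 0.636), nor without scramble replicate 3 (0.0707), shSCUBE3 replicate 1 (0.0983), shSCUBE3 replicate 2 (0.0509) or shSCUBE3 replicate 3 (0.109). In the GINS complex, GINS2 and GINS3 (-0.35 ± 0.06) fell and GINS1 (0.15 ± 0.05) and GINS4 (0.46 ± 0.05) rose, while their partner CDC45 fell (-0.22 ± 0.05).

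Of the polymerase genes 5 of 10 fell (50%), 2 rose (20%) and 3 did not pass. Over all genes tested, 42.5% were lower and 43.4% higher. The median log2 fold change of the group was -0.25. The largest drop of all members was in POLA1, the catalytic subunit of polymerase alpha, which had 202, 200.2 and 189 CPM in scramble and 81.7, 80.6 and 81.0 CPM in the libraries labelled shSCUBE3 (log2 fold change -1.28 ± 0.04 SE, adjusted p = 1.05e-28). PRIM1, the catalytic subunit of primase in the same complex, had 69.2, 68.8 and 69.5 CPM against 31.5, 28.0 and 29.5 CPM (-1.22 ± 0.05, adjusted p = 4.22e-23). The accessory subunit genes of that complex went otherwise. POLA2 rose (0.37 ± 0.05), and PRIM2, with 55.1, 56.9 and 55.5 CPM against 61.0, 55.6 and 56.1 CPM, overlapped between the groups (95% interval of the log2 fold change -0.05 to 0.14).

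In polymerase epsilon, POLE2 and POLE3 fell, the catalytic subunit gene POLE did not pass, and POLE4, a histone-fold subunit from the further list, rose (0.31 ± 0.06 SE, adjusted p = 2.93e-06; named after its value was seen). POLE2 had 65.3, 62.6 and 66.1 CPM in scramble and 48.0, 44.98 and 43.5 CPM in the libraries labelled shSCUBE3 (log2 fold change -0.51 ± 0.05 SE, adjusted p = 4.67e-12), and POLE3, the histone-fold partner of POLE4, fell as well (-0.42 ± 0.03). POLE itself had 139, 138 and 148 CPM against 135, 141 and 138 CPM (95% interval -0.11 to 0.04). In polymerase delta, the accessory subunit gene POLD3 fell (-0.42 ± 0.04), and the catalytic POLD1 had 97.8, 109.7 and 112 CPM against 97.4, 103 and 102 CPM, with overlapping groups (95% interval -0.17 to 0.01). POLD2, the regulatory subunit, rose (0.14 ± 0.05), though its groups overlapped. POLD1 and POLD2 both depended on single libraries: without scramble replicate 1, POLD1 passed (-0.15, adjusted p = 0.00147) and POLD2 did not (0.08, adjusted p = 0.0924), and POLD2 did not pass without shSCUBE3 replicate 2 either (0.10, adjusted p = 0.0662).

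The clamp and its loader were the single role in which all members, 6 of 6, fell, with a median log2 fold change of -0.37. PCNA, the ring that holds polymerases on DNA, had 352, 347 and 368 CPM in scramble and 231, 228 and 225 CPM in the libraries labelled shSCUBE3 (log2 fold change -0.64 ± 0.03 SE, adjusted p = 3.09e-21). RFC3, a subunit of the clamp loader, had 124, 129 and 123 CPM against 59.5, 60.7 and 60.2 CPM (-1.06 ± 0.04, adjusted p = 9.66e-25). RFC4, a further subunit, had 99.1, 96.1 and 103 CPM against 72.5, 75.03 and 74.4 CPM (-0.43 ± 0.04, adjusted p = 4.80e-12). The other loader genes fell less, RFC5 by 0.31, the large subunit gene RFC1 by 0.29 and RFC2 by 0.23 on the log2 scale. Their libraries did not overlap between groups in any of the 6 genes, where 42.5% of all genes tested were lower without overlap.

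**Figure D2:**
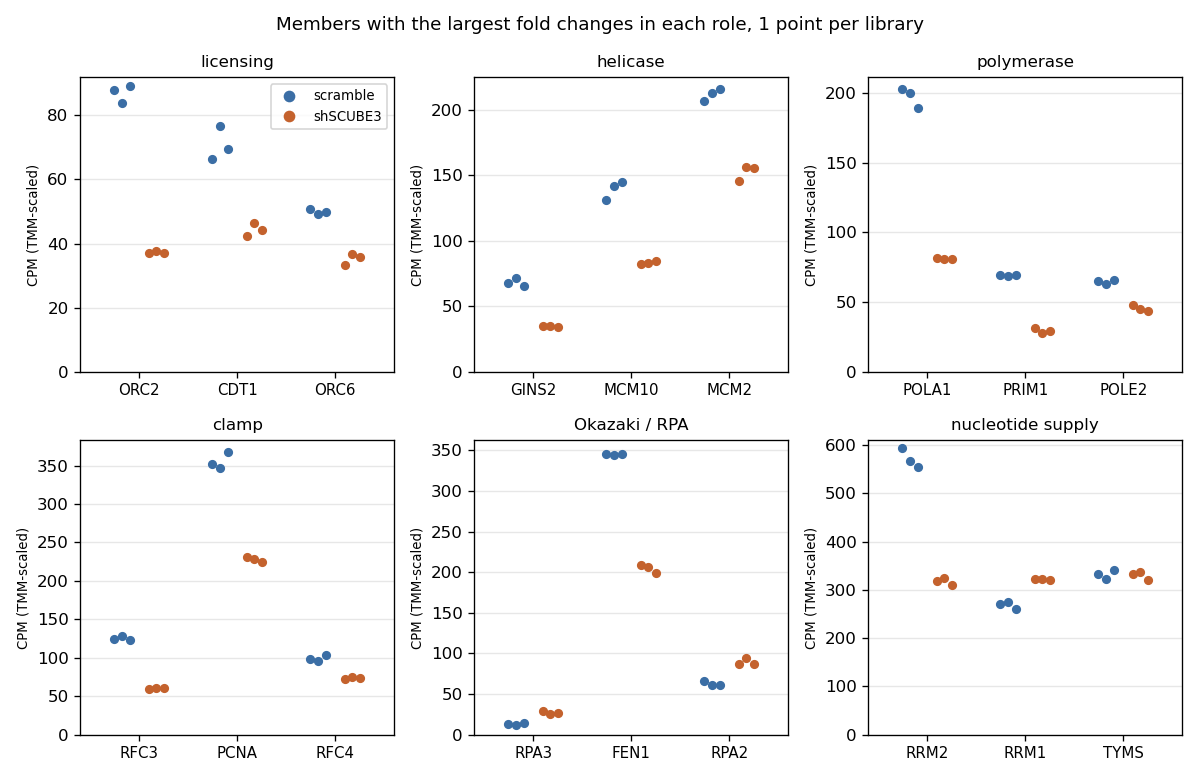
TMM-scaled CPM (vertical axes from 0) of the 3 members with the largest absolute log2 fold change in each role, with 1 point per library, scramble in blue and labelled shSCUBE3 in orange. The groups are separate for every gene shown except TYMS, and RPA3, RPA2 and RRM1 are the members shown that were higher in the libraries labelled shSCUBE3.

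In the maturation and single-strand binding group, the nuclease and ligase genes fell and 2 of 3 RPA genes rose. FEN1, the flap endonuclease that trims Okazaki fragments, had 346, 344 and 345 CPM in scramble and 208, 207 and 199.5 CPM in the libraries labelled shSCUBE3 (log2 fold change -0.75 ± 0.03 SE, adjusted p = 1.12e-23). LIG1, which seals them, fell by less (-0.18 ± 0.04). RPA, the trimer that coats single-stranded DNA, showed the largest rise among all members in its smallest subunit: RPA3 had 12.8, 12.4 and 14.4 CPM against 29.2, 25.8 and 26.6 CPM (1.04 ± 0.07, adjusted p = 5.07e-16). RPA2 had 65.8, 61.6 and 61.7 CPM against 86.9, 94.2 and 87.0 CPM (0.50 ± 0.05, adjusted p = 4.72e-13), while RPA1, the large DNA-binding subunit, fell slightly (-0.09 ± 0.03). That small drop of RPA1 did not pass with library totals as the scale (adjusted p = 0.235) or without shSCUBE3 replicate 3 (0.0658).

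The nucleotide supply genes went 3 ways. RRM2, the regulated small subunit of ribonucleotide reductase, had 593, 568 and 555 CPM in scramble and 317, 325 and 310.1 CPM in the libraries labelled shSCUBE3 (log2 fold change -0.85 ± 0.03 SE, adjusted p = 1.06e-25). RRM1, its large subunit, had 269.7, 274 and 261 CPM against 321, 321 and 319.8 CPM (0.26 ± 0.03, adjusted p = 7.32e-10). TYMS, thymidylate synthase, had 333, 323 and 341 CPM against 333, 338 and 319 CPM, which overlap (95% interval of the log2 fold change -0.07 to 0.05).

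Partners within a library were then compared, since a ratio of 2 genes does not depend on how libraries are scaled to each other. In all 9 pairs compared, the groups did not overlap, and each had an exact two-sided permutation p of 0.1 (n = 3 per group; 0.1 also after Benjamini-Hochberg adjustment over the 9), the smallest this design allows, so none could reach 0.05. The pairs were chosen with earlier results known, and single genes were separate between the groups in 85.8% of all cases, so separation alone does not set these pairs apart. Reads of POLA1 per read of POLA2 fell most, from 5.41 ± 0.428 (SD, n = 3) to 1.71 ± 0.0296. PRIM1 per PRIM2 went from 1.24 ± 0.0265 to 0.515 ± 0.0108. RRM2 reads outnumbered those of RRM1 in scramble, at 2.13 ± 0.0657, and nearly equalled them in the libraries labelled shSCUBE3, at 0.989 ± 0.0202. The ratio of RFC3 to RFC1 went from 1.01 ± 0.0271 to 0.590 ± 0.0135, of CDC6 to ORC1 from 6.998 ± 0.0756 to 4.43 ± 0.292, and of FEN1 to LIG1 from 3.37 ± 0.0664 to 2.27 ± 0.0814. Higher ratios were those of GMNN to CDT1, from 1.32 ± 0.0981 to 2.47 ± 0.129, POLE to POLE2, from 2.19 ± 0.0566 to 3.04 ± 0.191, and POLD1 to POLD3, from 1.28 ± 0.0803 to 1.62 ± 0.110.

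**Figure D3:**
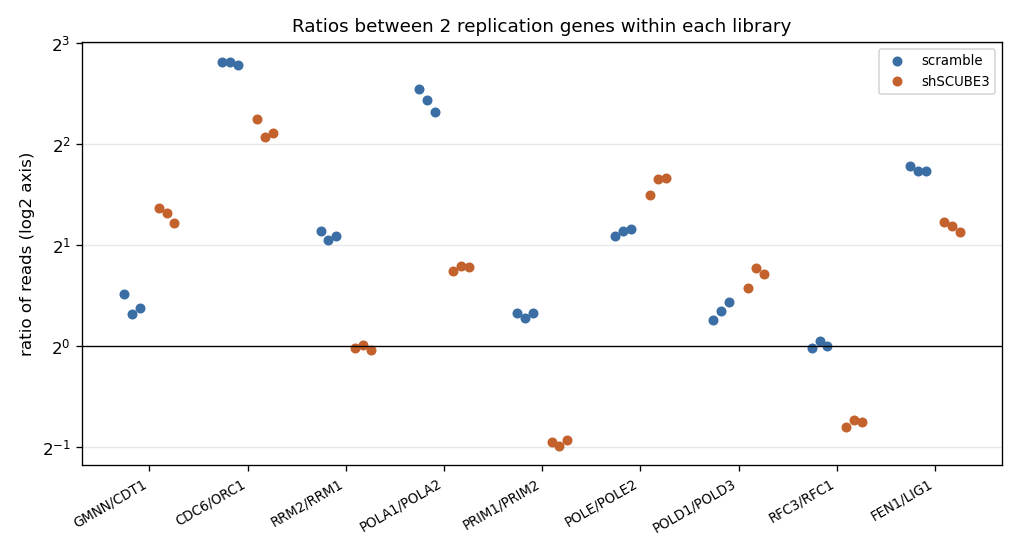
Ratio of the reads of 2 replication genes within each library (vertical axis, log2 scale; the black line is a ratio of 1), with 1 point per library for 9 pairs, scramble in blue and labelled shSCUBE3 in orange. The groups are separate in every pair, and POLA1/POLA2 shows the widest gap, 5.41 against 1.71.

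Levels of different genes can be compared only per length, so CPM were divided by the length of 1 GENCODE transcript per gene. That was the longest of those marked as principal, where any was. In scramble the highest per kilobase (kb) were PCNA (262 ± 7.93 CPM per kb, SD, n = 3), TYMS (200.2 ± 5.48), RRM2 (167 ± 5.72), MCM3 (158 ± 2.70) and FEN1 (150.3 ± 0.428). TYMS and PCNA led in the libraries labelled shSCUBE3, at 199 ± 5.74 and 168 ± 2.15 CPM per kb. MCM3 (151 ± 0.800), MCM7 (139.5 ± 1.56) and RRM1 (104 ± 0.304) followed. RRM2 and FEN1 stood lower there, at 92.5 ± 2.11 and 89.2 ± 2.03 CPM per kb. At the bottom were RPA3 (6.54 ± 0.498) and ORC4 (6.77 ± 0.358) in scramble, which differ by less than their SDs, and ORC4 (8.002 ± 0.197) in the other group. The length used was 6.71 kb for ORC4 and 2.02 kb for RPA3, and such ranks depend on the transcript chosen. Lengths were not corrected for sequence shared with other genes, which also bears on TYMS and RRM2.

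The makeup of each complex in RNA shifted with these changes. In the polymerase alpha and primase complex, POLA1 and PRIM1 held 30.1% ± 0.885 and 41.5% ± 0.521 of the reads per kb in scramble (SD, n = 3). In the libraries labelled shSCUBE3 they held 20.1% ± 0.653 and 28.9% ± 0.632. PRIM2 became the most abundant of the 4 there, at 33.8% ± 0.468 after 20.2% ± 0.278 in scramble. Within GINS, the order changed as well: GINS2 led in scramble (37.0% ± 0.894) and GINS1 in the other group (34.8% ± 0.754), and GINS4 went from 16.9% ± 0.745 to 26.7% ± 0.0996. The MCM ring kept its order from MCM3 through MCM7 to MCM4, with MCM7 at 25.3% ± 0.358 and 29.6% ± 0.287 and MCM4 at 17.1% ± 0.674 and 13.6% ± 0.336. RPA1 held 60% ± 0.839 of RPA in scramble and 48.2% ± 0.655 in the libraries labelled shSCUBE3. For ORC, ORC2 went from 18.7% ± 0.493 to 10.52% ± 0.121, and in replication factor C, RFC3 went from 19.8% ± 0.522 to 12.9% ± 0.106. No test was made of these shares. Lengths were not corrected for 50-base stretches also found in transcripts of other genes. These made up 55.2% of the stretches of POLA2, 31.3% of PRIM2, 28.8% of PRIM1 and 30.7% of GINS4, so orders within a library that involve these genes are uncertain.

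**Figure D4:**
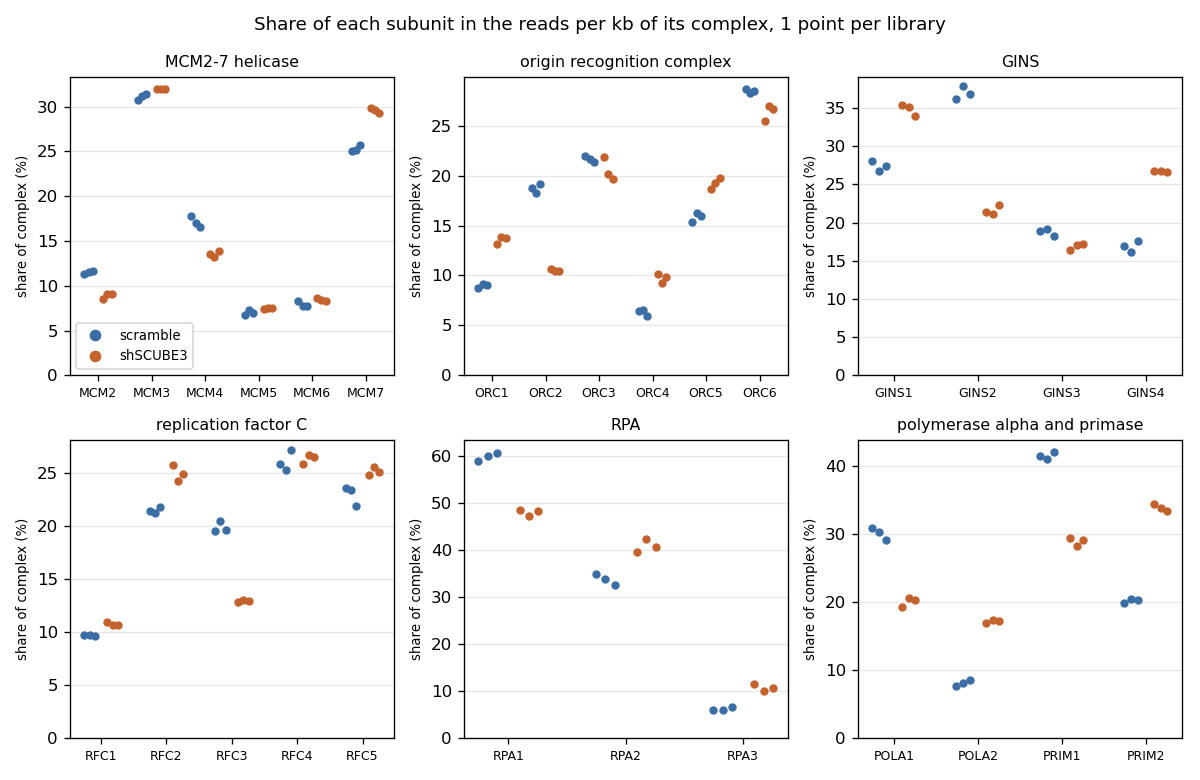
Share of each subunit in the reads per kb summed over its complex (percent, vertical axes from 0), with 1 point per library, scramble in blue and labelled shSCUBE3 in orange. PRIM2 passes PRIM1, and GINS1 and GINS4 pass GINS2, in the libraries labelled shSCUBE3, while MCM3 leads the MCM ring in both groups. Lengths are not corrected for sequence shared with other genes.

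Some members share sequence with transcripts of other genes or overlap other genes, which may bear on their counts. In 11 of 45 members, more than 10% of the 50-base stretches of the transcript, the read length used, also occur in GENCODE transcripts of another gene: ORC4, MCM2, MCM7, GINS3, GINS4, POLA2, PRIM1, PRIM2, POLD1, RRM2 and TYMS. In MCM2, MCM7, GINS3, POLD1 and PRIM1 every such gene is one that overlaps the member at its own locus. In RRM2, GINS4 and TYMS, overlapping genes were among those that share stretches, beside genes elsewhere. PRIM2 had no exon overlap with another gene. Exons of 7 members overlapped those of a gene that GENCODE lists under a clone-based name by more than 10%: POLA2 by 53.7%, RRM2 by 30.9%, PRIM1 by 26% and POLD1 by 12.4% on the same strand, and MCM2 by 30.7%, GINS4 by 30.2% and GINS3 by 17.3% on the opposite strand. None of these partners was among the genes tested under that name, so no level is given. Among partners that were tested, the largest overlap was that of TYMS with ENOSF1 on the opposite strand, over 58.2% of the TYMS exons, and ENOSF1 was at 31.6 CPM in scramble and 27.6 CPM in the libraries labelled shSCUBE3. MCM7 overlapped AP4M1 over 9.4%, with AP4M1 at 7.67 and 19.0 CPM. PRIM1 overlapped HSD17B6 over 8.8%, with HSD17B6 at 5.13 and 1.10 CPM. The library kit was stranded, but the strand setting of the counting is not given in the sources used here. Reads of these pairs may thus not be told apart. Reads mapped to several places also differed between the groups, at 33.97% to 34.15% of the reads listed in scramble and 29.26% to 29.6% in the libraries labelled shSCUBE3. Reads that the counting left as ambiguous were 0.53% to 0.60% of the reads listed. The part of shared sequence, overlap or multimapped reads in the members' values was not tested.

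Position on the chromosome was described by the 20 nearest tested genes of each member, 10 on either side in RefSeq order (13 in all for TYMS). The neighbours of the 4 members with the largest drops were lower too, but across the 45 members 25 had the same sign as their neighbours' median. How often other genes share that sign was not counted. Of all 13606 genes tested, 6758 had a log2 fold change below 0. Around POLA1, on chromosome X, the median log2 fold change of the neighbours was -0.95, with 15 of 20 below 0. Around PRIM1, on chromosome 12, it was -0.87 with 18 of 20 below 0, around RFC3, on chromosome 13, -0.82 with 17 of 20, and around ORC2, on chromosome 2, -0.39 with 15 of 20. GINS2 and RRM2 also fell strongly, but their neighbours had medians of 0.05 and -0.05, and RFC2 fell slightly among neighbours with a median of 0.94. Across the 45 members, the member's and the neighbours' values had Pearson's r of 0.65 and Spearman's rho of 0.66, and r was 0.56 without POLA1 and PRIM1, the farthest from the median of the neighbours' values. Over 11671 tested genes found in RefSeq the same values were 0.25 and 0.34. Genes tested include ones with few reads, and their log2 fold changes ran from -12.33 to 12.28. Those of the members ran from -1.28 to 1.04, so the correlations are not like for like. These correlations are across genes of the same 6 libraries, and genes are not independent replicates.

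**Figure D5:**
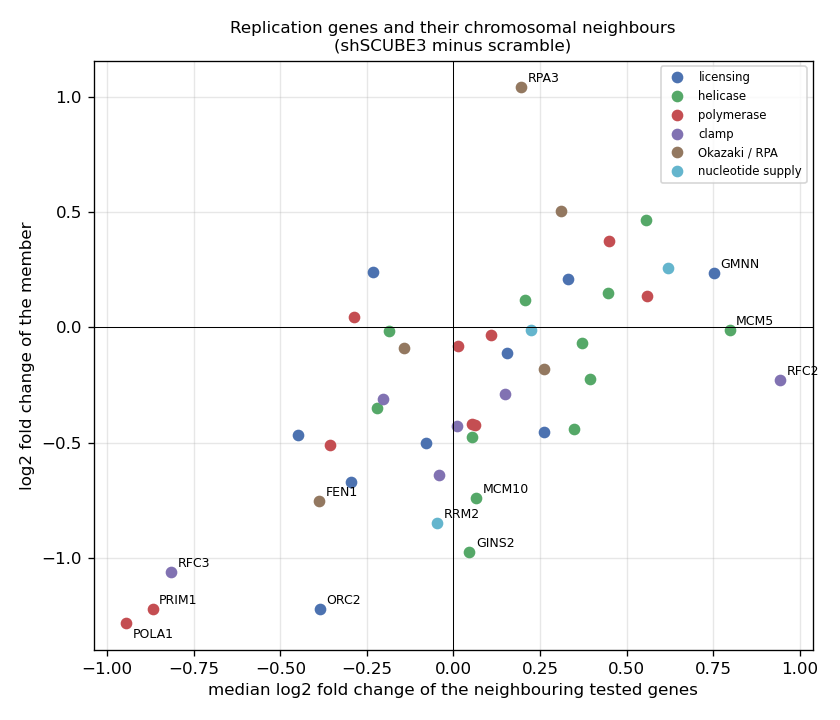
Log2 fold change of each replication gene (vertical axis) against the median log2 fold change of its nearest tested genes on the chromosome (horizontal axis), both labelled shSCUBE3 minus scramble, coloured by role. POLA1, PRIM1 and RFC3 lie at the lower left, with neighbours between -0.95 and -0.82, while GINS2 at -0.97 and RRM2 at -0.85 have neighbours near 0.

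Genes that act around the machinery were counted in lists of other replication genes. The counts stand beside the shares over all genes tested, 42.5% lower and 43.4% higher. Of 10 further genes tied to the same complexes, 6 were lower and 3 higher. MCM8, a paralogue that works in recombination, went from 265 ± 5.56 to 74.1 ± 4.94 CPM (SD, n = 3; log2 fold change -1.84 ± 0.04 SE), a larger drop than in any MCM of the ring, and POLD4, the smallest subunit of polymerase delta, from 9.51 ± 0.236 to 35.3 ± 3.22 CPM (1.89 ± 0.08). ATAD5, which helps to unload PCNA, was lower (-0.91 ± 0.06). Of 14 origin firing genes, 7 were lower and 6 higher (50% and 42.9%), near the shares over all genes. TOPBP1, a scaffold for helicase activation, was lower (-1.04 ± 0.04), and CCNA2 (1.08 ± 0.04) and RECQL4 (1.17 ± 0.05) were higher. Among 9 genes of licensing turnover, 5 were lower and 3 higher. SKP2, a ubiquitin ligase subunit that acts on CDT1, was lower (-1.52 ± 0.04), and CUL4B (0.82 ± 0.04) and CDC20 (0.69 ± 0.04) were higher.

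Fork and chromatin genes were mostly lower, where 42.5% of all genes tested were lower and 43.4% higher. Of 17 genes of fork progression and protection 11 were lower and 3 higher (64.7% and 17.6%), with a median log2 fold change of -0.42. They included the topoisomerase gene TOP1 (-1.04 ± 0.03 SE), the helicase gene BLM (-1.07 ± 0.05) and TIMELESS (-0.80 ± 0.04), which protects forks. Chromatin assembly had 9 lower and 2 higher genes of 13 (69.2% and 15.4%), and its median was -0.46. Both subunits of the histone chaperone FACT were among the largest: SSRP1 went from 1082 ± 22.0 to 410.3 ± 6.57 CPM (SD, n = 3) and SUPT16H from 743 ± 13.4 to 284 ± 4.58 CPM, with log2 fold changes of -1.40 ± 0.03 and -1.39 ± 0.03. The maintenance methyltransferase gene DNMT1 was lower too (-0.72 ± 0.03).

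In nucleotide metabolism, 11 of 16 genes were lower and the other 5 higher (median -0.16). ATIC (-1.54 ± 0.03 SE) and GART (-0.82 ± 0.03), of purine synthesis, were lower and IMPDH1, of guanine nucleotide synthesis, was higher (1.09 ± 0.05). The 23 E2F and RB regulators divided into 11 lower, 8 higher and 4 that did not pass (median -0.07). E2F4, a mostly repressive E2F, went from 310.1 ± 9.85 to 89.6 ± 2.11 CPM (SD, n = 3; -1.79 ± 0.04), RB1 from 193 ± 6.19 to 95.5 ± 1.48 CPM (-1.01 ± 0.04) and the D-type cyclin gene CCND3 from 92.8 ± 5.37 to 227 ± 2.92 CPM (1.29 ± 0.04). Over all of the lists of other replication and cell cycle genes, 81 of 141 tested were lower (57.4%) and 43 higher (30.5%). Of all genes tested, 42.5% were lower and 43.4% higher. The median of the lists was -0.25, where that of the members was -0.23.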

How the data were processed

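Polyadenylated RNA of 6 libraries, 3 per group by their titles, was sequenced as single reads of 50 bases with a stranded kit, per the labels' protocols. The tools named in the submitters' processing notes are bcl2fastq, HTSeq and TopHat2 2.0.8b, and the build is hg19. The authors deposited raw read counts per gene symbol. The 5 summary lines were left out; among them, reads with no feature made up 11.01% to 14.99% and multimapped reads 29.26% to 34.15% of the reads listed. The 13606 genes that filterByExpr kept entered edgeR 4.0.16 in R 4.3.3 (TMM scaling, robust quasi-likelihood F test, group as the single term, two-sided, Benjamini-Hochberg, threshold 0.05). To get an SE, the log2 fold change was divided by the square root of F. CPM carry the TMM factors. The common dispersion gave a biological coefficient of variation of 3.21%, and members had 261 to 14091 reads per library. The method was tested on simulated data in which 50 genes changed at each fold size. It recovered 80% of 1.2-fold and 98% of 1.5-fold changes, and 5.03% of calls were false. In the real libraries 85.9% of genes were called, and the simulation does not cover changes in so many genes.

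Named genes are the 45 members, with values in every library for the 3 largest changes per role and for members that did not pass, and up to 3 genes by adjusted p from each further list. Members and lists were chosen with earlier results of these data known. Symbols of 3 listed genes were matched through RefSeq synonyms. Lengths, overlaps and shared 50-base stretches come from GENCODE 29 (GRCh38), which is not the authors' annotation. RefSeq gave promoters and gene order. Alternatives were other scalings and filters, DESeq2 1.42.0, limma-voom (limma 3.58.1), a block for the replicate number, leaving out single libraries, a threshold of 0.01 and a test against a 1.5-fold change.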

Additional observations from a re-analysis of the deposited data

How the results depend on the processing

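Counts of members called ran from 25 to 28 lower and from 10 to 11 higher when single libraries were left out, with 11450 to 11630 genes called in all and a member median of -0.25 to -0.22. Scaling by library totals gave a member median of -0.18 and raised the median of all genes by 0.05. With edgeR's glmTreat against a 1.5-fold change, 10 of 45 members passed as lower and 1 as higher. Of 13606 genes tested, 6251 passed (3307 higher, 2944 lower). The share of members lower was then near that of all genes, and the share higher was well below it. Of the other replication genes 49 passed, against 124 in the main test. Apart from glmTreat, 35 of the 38 called members kept direction and call under every alternative, the exceptions being MCM3, RPA1 and POLD2. POLD1, not called, passed with the replicate block (-0.08, adjusted p = 0.0358).

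The labels do not say whether the replicate numbers pair the libraries. Deviations of same-numbered libraries correlated at 0.02, 0.01 and 0.00 across genes, so no shared replicate signal was seen. With a replicate block, 28 members were lower and 11 higher, and 125 other replication genes and 11706 genes in all were called. SCUBE3 ran from -0.05 to 0.08 with single libraries left out and was not called in any. Ratios between members kept their direction with each library left out and with 0.5 reads added to both genes.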

Other observations

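Of 25 mitosis genes, which act after replication, 16 were lower and 6 higher in the libraries labelled shSCUBE3 (median log2 fold change -0.22). That is 64% lower and 24% higher, where 42.5% of all genes tested were lower and 43.4% higher. MKI67, the proliferation marker, went from 1713 ± 48.7 to 949.8 ± 24.5 CPM (SD, n = 3; log2 fold change -0.85 ± 0.03 SE), and INCENP, of the chromosomal passenger complex, fell as well (-0.81 ± 0.04). CCNB1, the mitotic cyclin, rose (0.73 ± 0.03).

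Translesion and repair polymerases were higher in 7 and lower in 5 of 14 tested cases, with a median of 0.11. That is 50% higher and 35.7% lower, near the 43.4% and 42.5% of all genes tested. POLH, which copies past ultraviolet damage, went from 48.0 ± 0.534 to 90.6 ± 0.981 CPM (SD, n = 3; 0.92 ± 0.04 SE) and MAD2L2, a subunit of polymerase zeta, rose too (0.67 ± 0.06). POLQ, of end joining, went from 65.2 ± 2.39 to 27.0 ± 1.93 CPM (-1.27 ± 0.06). Differences between these lists and the members were not tested.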
